A study of Mus musculus with 74 samples.

Results

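Nanog was induced in mouse embryonic stem (ES) cells that had been deprived of LIF, the cytokine that holds them in self-renewal, and the transcripts of cells with and without induction were compared. The 6 libraries compared here, 3 with doxycycline (Dox) and 3 without, were chosen by their labels from 35 RNA-seq libraries, as all those of SunTag cells that carry the Nanog guide RNA alone and were grown without LIF. The cells derive from E14Tg2a ES cells and were kept in serum with 10 ng/mL LIF before it was removed for 3 days, with or without 1 µg/mL Dox. SunTag is a pair of proteins, an inactive Cas9 that carries a string of epitopes and an antibody fragment fused to a transcriptional activator, which the guide RNA directs to the promoter it matches. Both proteins are expressed from a promoter that responds to Dox, so the cells without Dox carry the same constructs and the same guide, and Dox is the labelled difference between the groups. The response is therefore that to Dox and SunTag at this promoter, and cells given Dox without a guide were not analysed here.

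The libraries come from the SunTag clones C1 and C2 and are named here by clone and number. They are C1-1, C1-2 and C2-1 without Dox, and C1-1, C1-1b and C2-2 with Dox, in which order their values are given. A pair of C1 libraries with Dox carries the same number in the labels and is told apart by the letter. The labels do not say whether libraries of 1 clone were grown as separate cultures, so the p-values measure the spread between libraries. Each group thus stands for a pair of clones. For the Nanog guide cells the spread was estimated over these 6 libraries and the 5 of the same cells in LIF. For comparison, the same cells in LIF gave 3 libraries without and 2 with Dox, and cells that carry guides for Nanog and Otx2 gave 4 and 4 libraries without LIF.

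The guide is shown because its position defines what was induced. It is printed in lower case from 5′ to 3′, with the adjoining PAM of the genome in capitals.

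Nanog guide: gcttcccactagagatcgccaGGG

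Its last 20 bases match mm9 in 1 place, chr6:122657269-122657288 on the plus strand, and the leading base of the 21 differs from the genome (G1A, counted from the 5′ end of the guide). The end next to the PAM lies 219 bases before the start of Nanog (ENSMUSG00000012396, chromosome 6, 122657507 to 122664651, plus strand), in its promoter region and outside its exons.

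Nanog is a homeodomain transcription factor of the naive pluripotency network. LIF acts through its receptor and gp130 on JAK kinases and STAT3, and its withdrawal lets ES cells leave the naive state through a formative, epiblast-like stage towards germ layers. Raised Nanog is known to allow ES cells to self-renew without LIF, which is why its targets in cells that are otherwise differentiating are of interest.

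The estimated counts of the 6 libraries summed to between 23334968 and 70450383. Expression is given as normalised counts, which are counts divided by a size factor of the library, so levels of different genes are not compared. The leading principal component of the 6 libraries held 48.9% of the variance and separated cells with Dox from cells without. Transcripts encoded by the mitochondrial genome took 9.88% to 10.4% of the counts with Dox and 6.99% to 8.02% without. The part of this shift in the other results was not tested. In bulk RNA, fewer cells that express a gene and less RNA per cell cannot be told apart. Below, 3 values set against 3 are normalised counts without and with Dox.

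Nanog itself had 7032, 8484 and 2234 normalised counts without Dox and 54732, 55641 and 45041 with Dox. Every library with Dox lay far above those without, and the C2-1 library without Dox was the lowest. This was an 8.94-fold rise (log2 fold change 3.16, standard error 0.39, adjusted p = 0.000899). For reference, the libraries in LIF without Dox held 29487, 23345 and 21940 normalised counts, below the level reached with Dox in the absence of LIF.

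Of 15624 genes tested, 803 responded to Dox in the absence of LIF at an adjusted p-value under 0.05, which is 5.14%. Unless another test is named, adjusted p-values come from the quasi-likelihood test of edgeR and were adjusted by the method of Benjamini and Hochberg. Expression rose for 562 genes (3.6%) and fell for 241 genes (1.54%). The raised genes had a median log2 fold change of 1.65 and the lowered genes one of -1.17, against 0.002 for all genes tested. A rise of at least 1 on the log2 scale was seen for 470 genes and a fall of at least that size for 151. In each of the 803 the libraries with and without Dox did not overlap, as was so, with those with Dox higher, for 15.5% and, with those with Dox lower, for 18.6% of all genes tested. Of the 27 tested genes of the naive pluripotency list 19 rose, against 3.6% of all genes tested, and 543 of the raised genes lay outside this list. Of the raised genes 73 had under 10 normalised counts in all 3 libraries without Dox, and of the lowered genes 8 had under 10 in all 3 libraries with Dox.

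The number of calls moved with the fit. With the clone as a block it was 1375, or 8.8% of the genes (866 raised, 5.54%, and 509 lowered, 3.26%), and with DESeq2's Wald test 1509 (878 raised, 631 lowered). With the clones and numbers of the table's column names as a block, a fit added after seeing the data, it was 1044 (704 raised, 340 lowered), and 6 of the genes described here missed the threshold: Has2 (adjusted p = 0.0613), Mixl1 (0.055), Tcf7 (0.0552), Tead2 (0.0573), Gnas (0.0591) and Ddx58 (0.0686). With the libraries without LIF fitted on their own it was 1951 (1061 raised, 890 lowered). Leaving out 1 library gave 277 calls without C1-1 of the cells without Dox and 290 without C1-1 of those with Dox. It gave 420 without C1-2, 422 without C1-1b and 518 without C2-1. Without C1-1 of the cells in LIF without Dox it gave 1617. That library had the lowest depth of the 11 libraries of the model (10937367 counts). Of the 92 called genes described here, 45 kept their call whichever of the 11 libraries of the model was left out, and none changed direction.

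The 15 genes outside the naive list with the largest rises, among those with a mean of 100 normalised counts or more with Dox, had log2 fold changes of 3.33 to 6.18. They encode a HOX factor, hormones and growth factors, receptors and matrix proteins, and enzymes of lipid mediators. The plot of the 15 raised genes shows all 6 libraries beside the cells in LIF.

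**Figure D1:**
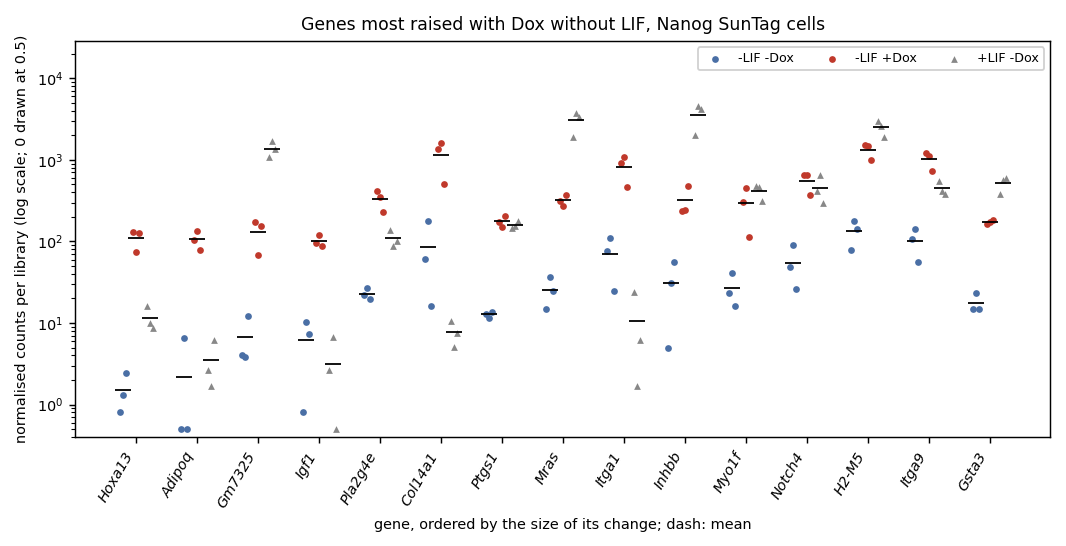
The 15 genes most raised with Dox without LIF, outside the naive list. Points are normalised counts of single libraries on a log axis for cells without LIF and without Dox (blue circles), without LIF and with Dox (red circles) and with LIF and without Dox (grey triangles), and dashes are means. All red points lie above the blue points of the same gene, and for Hoxa13, Adipoq, Igf1, Pla2g4e, Col14a1, Itga1 and Itga9 they also lie above the grey points.

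Hoxa13 (ENSMUSG00000038203, chromosome 6, 52207693 to 52210874), a homeobox gene of the posterior end of the body axis, had 0.814, 1.29 and 2.46 normalised counts without Dox and 132, 73.7 and 127 with Dox. It was close to silent in every library without Dox and clearly read in every library with Dox (log2 fold change 6.18, standard error 0.59, adjusted p = 0.0002). Only 4 reads were counted over the libraries without Dox against 542 with Dox, a ratio of 81.7 at equal depth (95% exact counting interval 31.7 to 301.1, which covers counting error only). Adipoq, the gene of the hormone adiponectin, had 0, 6.46 and 0 normalised counts without Dox and 105, 135 and 79.5 with Dox (log2 fold change 5.78, standard error 0.85, adjusted p = 0.00264). A pair of its libraries without Dox held no read, and 5 reads in all stood against 497, a ratio of 59.97 (25.5 to 185.5). The fitted fold changes of both genes depend on how such low counts are treated. In LIF without Dox, Hoxa13 had 8.74 to 16.1 and Adipoq 1.68 to 6.24 normalised counts, below every library with Dox in its absence.

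Several of the 15 encode secreted factors and surface proteins. Igf1, the growth factor of the insulin family, had 0.814, 10.3 and 7.38 normalised counts without Dox and 96.9, 119 and 86.7 with Dox (log2 fold change 4.14, standard error 0.87, adjusted p = 0.018). Inhbb, which encodes the β-B subunit of activin, had 4.88, 31.02 and 56.5 against 238, 240 and 483 (log2 fold change 3.48, standard error 0.61, adjusted p = 0.0073). Col14a1, a collagen that associates with fibrils, had 60.3, 177 and 15.98 against 1354, 1598 and 501 (log2 fold change 3.81, standard error 0.70, adjusted p = 0.00934). In each of these the lowest library with Dox was above the highest without, though Inhbb and Col14a1 ranged widely without Dox. Itga1, the collagen-binding integrin α1, had 75.7, 110 and 24.6 against 920, 1089 and 470 (log2 fold change 3.59, standard error 0.64, adjusted p = 0.00853). Itga9, an integrin that binds tenascin, had 107, 141 and 56.5 against 1205, 1114 and 727 (log2 fold change 3.35, standard error 0.34, adjusted p = 0.000246). Notch4, a receptor of the NOTCH family, had 48.04, 90.5 and 25.8 against 660, 649 and 366 (log2 fold change 3.39, standard error 0.43, adjusted p = 0.0012). C2-1 and C2-2 were the lowest libraries of their groups for these 3 receptors. Leaving out C1-1 of the cells without Dox ended the calls of Col14a1 (adjusted p = 0.0628) and Itga1 (adjusted p = 0.0524), and Igf1 lost its call without that library, C2-1, or either C1 library with Dox (adjusted p up to 0.0863).

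The others of the 15 encode enzymes and proteins of several kinds. Pla2g4e, a cytosolic phospholipase of the A2 group, had 21.98, 27.1 and 19.7 normalised counts without Dox and 417, 353 and 232 with Dox (log2 fold change 3.89, standard error 0.32, adjusted p = 5.57e-05). Ptgs1, the cyclooxygenase that makes prostaglandins from the arachidonic acid that such phospholipases can release, had 13.03, 11.6 and 13.5 against 173, 148 and 208 (log2 fold change 3.80, standard error 0.26, adjusted p = 3.40e-05). Gsta3, a glutathione transferase, had 14.7, 23.3 and 14.8 against 161, 172 and 181 (log2 fold change 3.33, standard error 0.26, adjusted p = 5.15e-05). Ptgs1 and Gsta3 were among the tightest of the 15, with little spread on either side. Mras, a small GTPase of the RAS family, had 14.7, 36.2 and 24.6 against 312, 268 and 375 (log2 fold change 3.73, standard error 0.33, adjusted p = 0.00012). Myo1f, an unconventional myosin best known from leukocytes, had 23.6, 41.4 and 15.98 against 308, 454 and 115 (log2 fold change 3.47, standard error 0.50, adjusted p = 0.00232). H2-M5, a non-classical MHC class I gene, had 78.2, 180 and 143 against 1517, 1473 and 1001 (log2 fold change 3.36, standard error 0.30, adjusted p = 0.000144). Gm7325, the gene of the muscle fusion peptide myomixer, had 4.07, 3.88 and 12.3 against 173, 68.6 and 155 (log2 fold change 4.36, standard error 0.47, adjusted p = 0.000374). In LIF without Dox, Mras had 1933 to 3788, Gm7325 1076 to 1690 and Inhbb 2032 to 4576 normalised counts. H2-M5 had 1933 to 3020 and Gsta3 383 to 603 there. All of these lay above every library with Dox in the absence of LIF. By contrast, Itga1 had 1.68 to 24.1 and Col14a1 5.03 to 10.7 in LIF without Dox, below every library without LIF.

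The 15 genes with the largest falls had log2 fold changes of -3.37 to -2.08. They encode regulators of neural and ectodermal fate, transporters, and secreted and surface proteins, several of them known from neural or craniofacial development. The plot of 14 lowered genes shows all 6 libraries beside the cells in LIF.

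**Figure D2:**
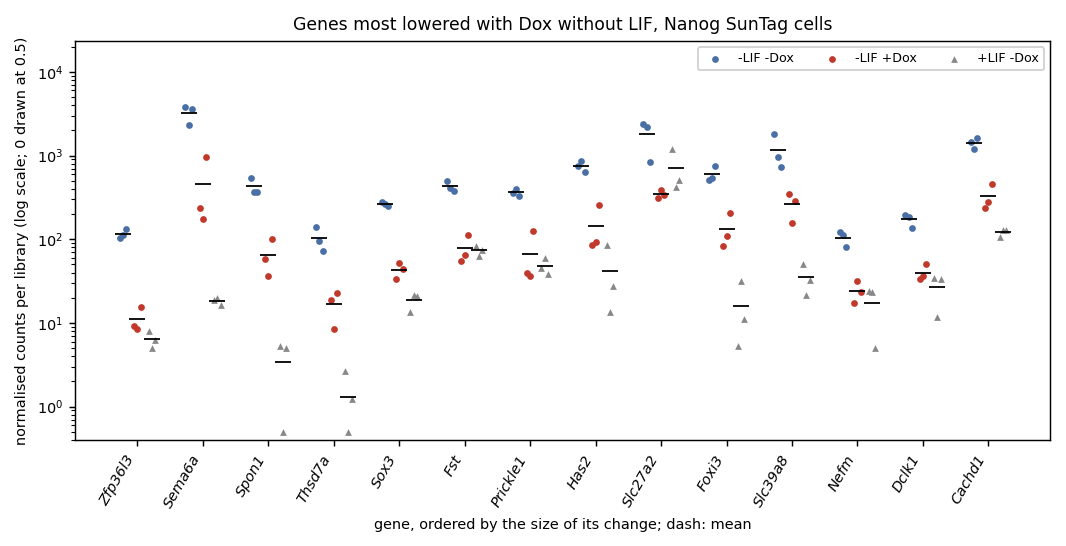
Of the 15 genes most lowered with Dox without LIF, the 14 described. Points are normalised counts of single libraries on a log axis for cells without LIF and without Dox (blue circles), without LIF and with Dox (red circles) and with LIF and without Dox (grey triangles), and dashes are means. All red points lie below the blue points of the same gene, and C2-2 is the highest with Dox for 10 of the 14.

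Zfp36l3, an RNA-binding protein of the tristetraprolin family on chromosome X, fell the most. It had 103, 112 and 134 normalised counts without Dox and 9.19, 8.57 and 15.4 with Dox (log2 fold change -3.37, standard error 0.39, adjusted p = 0.000684). Sox3, a SOXB1 factor of neural progenitors and epiblast, had 278, 266 and 248 against 33.8, 52.3 and 44.3 (log2 fold change -2.58, standard error 0.30, adjusted p = 0.000673), and Foxi3, a forkhead factor of the early ectoderm, had 513, 547 and 760 against 83.98, 109 and 208 (log2 fold change -2.16, standard error 0.47, adjusted p = 0.0214). For all 3 genes every library with Dox lay below every library without, and for Foxi3 C2-2 was the highest with Dox. Fst, which encodes follistatin, an inhibitor that binds activin, had 499, 415 and 375 against 55.1, 65.2 and 113 (log2 fold change -2.44, standard error 0.29, adjusted p = 0.000776). Sema6a, a transmembrane semaphorin, had 3769, 2313 and 3576 against 233, 173 and 957 (log2 fold change -2.80, standard error 0.54, adjusted p = 0.0121), and Spon1, the matrix protein F-spondin, had 544, 371 and 371 against 58.5, 36.9 and 99.4 (log2 fold change -2.70, standard error 0.42, adjusted p = 0.00377). For Sema6a the C2-2 library with Dox stood well above the other two. Has2, a hyaluronan synthase, had 756, 867 and 639 against 85.2, 93.4 and 256 (log2 fold change -2.35, standard error 0.59, adjusted p = 0.0407). Prickle1, a component of planar cell polarity, had 360, 396 and 332 against 39.3, 36.9 and 125 (log2 fold change -2.42, standard error 0.44, adjusted p = 0.00899).

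Among the transporters, Slc27a2, of fatty acids, had 2404, 2177 and 847 normalised counts without Dox and 312, 390 and 341 with Dox, and Slc39a8, of zinc and manganese, had 1825, 959 and 740 against 343, 159 and 283. Their log2 fold changes were -2.35 and -2.13, with adjusted p-values of 0.0113 and 0.00867. Clone C2 had the lowest level of each without Dox, and no library with Dox reached it. Nefm, a neurofilament subunit, fell from between 79.9 and 121 to between 17.5 and 31.7, and Dclk1, a kinase related to doublecortin, from between 136 and 197 to between 33.4 and 50.6 normalised counts (log2 fold changes -2.09 and -2.09, adjusted p = 0.0245 and 0.0127). Thsd7a, a membrane protein with thrombospondin repeats, fell from between 72.5 and 142 to between 8.57 and 22.6, and Cachd1, a relative of calcium channel subunits, from between 1191 and 1610 to between 239 and 462 (log2 fold changes -2.59 and -2.08, adjusted p = 0.00932 and 0.0019). Calls were lost when 1 library was left out for 8 of the 14, namely Has2, Foxi3, Nefm, Dclk1, Sema6a, Thsd7a, Slc27a2 and Prickle1, with adjusted p-values then of up to 0.192, 0.125, 0.143, 0.0829, 0.0627, 0.061, 0.0627 and 0.0522. C1-1 with Dox was among the libraries whose removal had this effect for all 8, and C1-1 without Dox for all but Prickle1.

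Gene programmes were then read from 37 lists of genes, each of a pathway, a cell type or a cellular process. They held 747 tested genes, of which 57 rose (7.63%, against 3.6% of all genes tested) and 32 fell (4.28%, against 1.54%). The counts of called genes in single lists below are to be set beside these shares of 3.6% and 1.54%. Of the raised genes 19 are those of the naive list, and of the 720 genes in the other lists 38 rose (5.28%) and 32 fell (4.44%). Members of 16 lists rose without any falling, members of 3 lists fell without any rising, 12 lists had both and 6 had neither. The plot of the lists shows each tested member. The naive pluripotency list had the highest median log2 fold change (1.59) and the protocadherins the lowest (-0.87), against 0.002 for all genes.

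**Figure D3:**
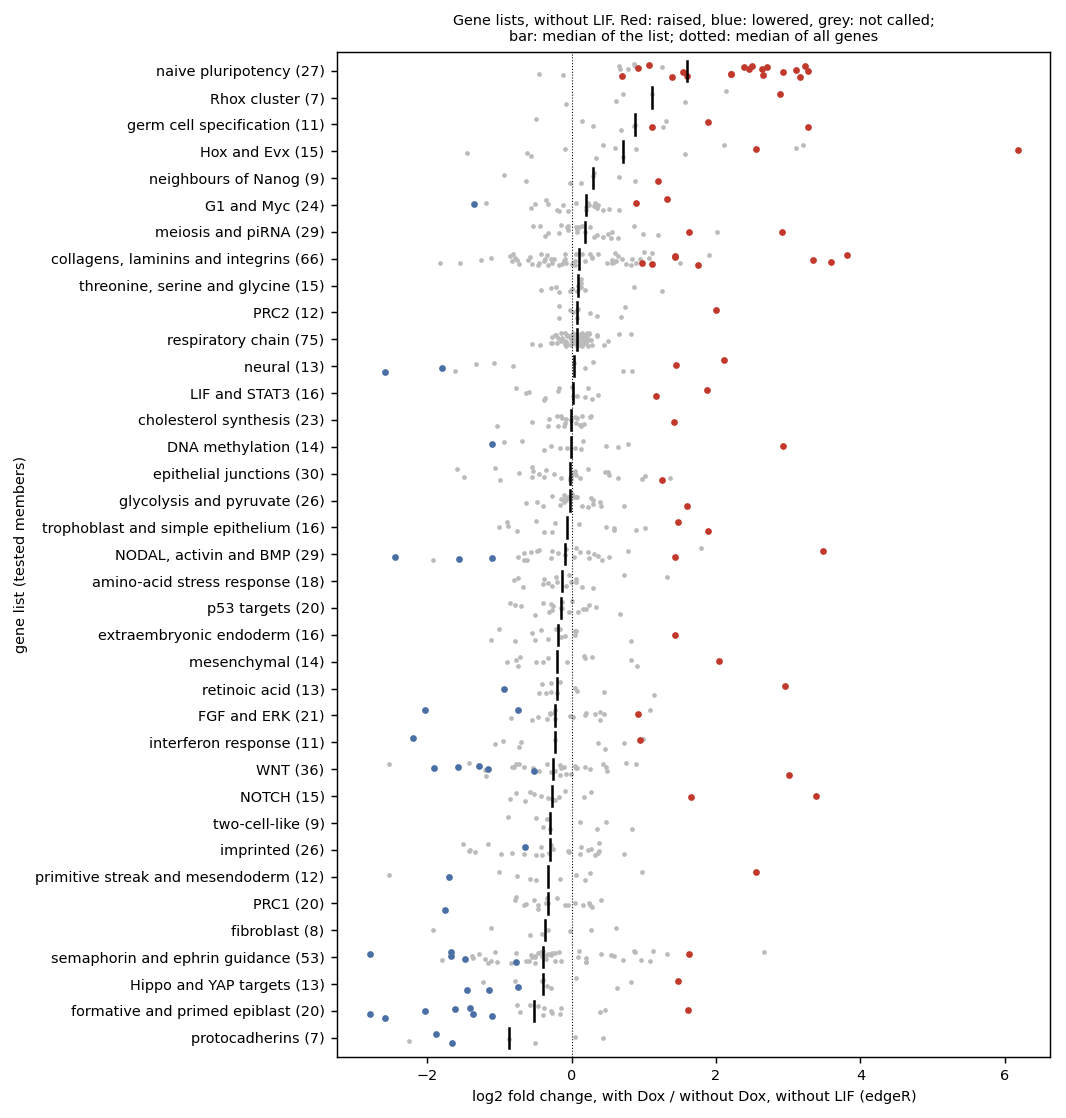
Log2 fold changes with Dox in the absence of LIF (horizontal axis) of the tested members of each list (rows, number tested in brackets, ordered by median). Red points rose and blue points fell at an adjusted p-value under 0.05, grey points did not pass, black bars are list medians and the dotted line is the median of all genes. Medians run from -0.87 for protocadherins to 1.59 for naive pluripotency.

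In the list of formative and primed epiblast genes, which mark the stage after the naive one, 7 of 20 tested genes fell and 1 rose (median log2 fold change -0.52). Besides Sema6a and Sox3, the lowered genes were Fgf5, Pou3f1, Sall2, Pim2 and Dnmt3b. Fgf5, the growth factor that defines the primed epiblast, had 2557, 2528 and 2508 normalised counts without Dox and 422, 530 and 866 with Dox (log2 fold change -2.03, standard error 0.45, adjusted p = 0.0231), and Pou3f1, a POU factor also called Oct6, had 3048, 3192 and 4101 against 811, 1118 and 1387 (log2 fold change -1.61, standard error 0.23, adjusted p = 0.00205). Both fell in all libraries with Dox, and both were lowest in C1-1. The table holds Pou3f1 under 2 identifiers, so some of its reads may be counted under the other. Pim2, a kinase, had 21245, 24113 and 22922 against 7710, 8472 and 9866 (log2 fold change -1.36, standard error 0.16, adjusted p = 0.000719), and Sall2, a zinc finger factor, had 2989, 3192 and 3780 against 797, 1184 and 1682 (log2 fold change -1.41, standard error 0.27, adjusted p = 0.0114). Dnmt3b, a de novo DNA methyltransferase, had 69072, 61951 and 73045 against 32300, 28834 and 31976 (log2 fold change -1.10, standard error 0.27, adjusted p = 0.0343). Its 3 libraries with Dox held less than any without, but still more than those in LIF (2802 to 6129). Otx2 had 4254, 3534 and 4927 against 2248, 2484 and 2620 (log2 fold change -0.76, standard error 0.21, adjusted p = 0.0658) and did not pass. Its groups did not overlap, as was so with Dox lower for 18.6% of all genes tested, and with the clone as a block its adjusted p was 0.042. Fgf5, Sall2 and Dnmt3b lost their calls when some single libraries were left out, C1-1 with Dox among them (adjusted p up to 0.137, 0.053 and 0.124), and DESeq2 gave Fgf5 an adjusted p of 0.261.

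Neural genes moved in both directions. Of 13 tested, Ncam1 and Stmn2 rose and Sox3 and Nes fell (median 0.03). Ncam1, a neural adhesion molecule, had 100, 103 and 109 normalised counts without Dox and 487, 375 and 465 with Dox (log2 fold change 2.12, standard error 0.16, adjusted p = 5.15e-05), and Stmn2, a regulator of microtubules, had 1216, 1015 and 1674 against 3645, 2803 and 3958 (log2 fold change 1.44, standard error 0.22, adjusted p = 0.00343). Nes, the intermediate filament of neural progenitors, had 2868, 3220 and 1069 against 574, 826 and 622 (log2 fold change -1.79, standard error 0.34, adjusted p = 0.0113). Its C2-1 library without Dox was much lower than the C1 libraries. Its call was lost without C1-1 of either group or without C1-2 (adjusted p up to 0.0687). In LIF without Dox, Ncam1 had 737 to 830 and Stmn2 8354 to 13121 normalised counts, above every library with Dox in its absence. Sox3 had 13.4 to 21.8 and Nes 142 to 217 there, below every library without LIF. Pax6, which defines neural progenitors, had 94.5, 429 and 101 against 257, 634 and 193 (log2 fold change 0.83, standard error 0.74, adjusted p = 0.64), groups that overlapped.

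Primitive streak and mesendoderm genes gave 1 rise and 1 fall among 12 tested (median -0.33). Evx1, a homeobox gene of the streak, had 12.2, 18.1 and 22.1 normalised counts without Dox and 114, 117 and 69.6 with Dox (log2 fold change 2.56, standard error 0.48, adjusted p = 0.0106), while Mixl1, a homeobox gene of mesendoderm, had 54.6, 63.3 and 39.3 against 15.5, 17.1 and 14.5 (log2 fold change -1.70, standard error 0.41, adjusted p = 0.0325). The defining genes T (41.5, 24.6 and 33.2 against 12.5, 36.9 and 9.04, adjusted p = 0.62) and Eomes (363, 551 and 360 against 470, 617 and 396, adjusted p = 0.756) overlapped between groups. Evx1 lost its call without C1-1 of either group (adjusted p up to 0.0671), and Mixl1 without any single library of the 6 (adjusted p up to 0.155).

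Evx1 lies next to the HoxA cluster, and together with Hoxa13 it was the only called gene of the list of HOX and EVX genes, in which 15 of 42 were expressed highly enough to be tested (median 0.71). Hoxa4, Hoxa9, Hoxa10, Hoxa11, Hoxa13, Hoxb13, Hoxd4 and Hoxd8 reached the filter of 10 normalised counts only in groups given Dox. The median is therefore in part set by the filter. Hoxa10 and Hoxa11 were singled out after their values were seen. Hoxa11 had 0, 3.88 and 1.23 normalised counts without Dox and 14.2, 13.7 and 15.4 with Dox (log2 fold change 3.21, standard error 1.03, adjusted p = 0.11), and Hoxa10 had 0, 6.46 and 1.23 against 19.2, 19.7 and 20.8 (log2 fold change 3.10, standard error 0.88, adjusted p = 0.0685). Neither passed. Their groups did not overlap, as was so with Dox higher for 15.5% of all genes tested. With the clone as a block both passed (adjusted p = 0.0494 and 0.0389), which gave 4 raised genes of the list. Outside HoxA no HOX gene was called, and Hoxd13, with the most counts among those of the other clusters, had 71.7, 209 and 77.4 against 47.6, 142 and 39.8 (log2 fold change -0.61, adjusted p = 0.753).

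**Figure D4:**
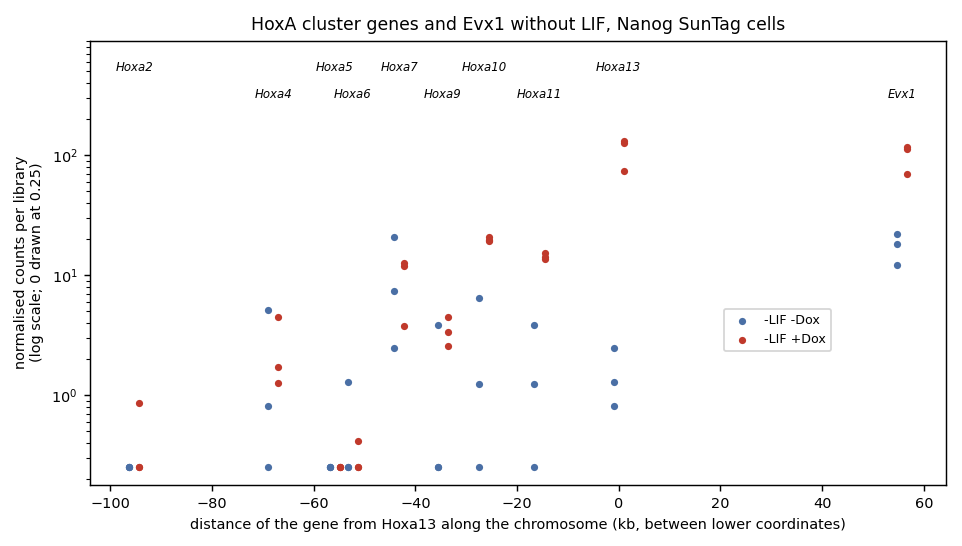
Normalised counts of single libraries (vertical, log axis, 0 drawn at the bottom) for genes of the HoxA cluster from Hoxa2 to Hoxa13 other than Hoxa3, and for Evx1, by their distance from Hoxa13 in kb (horizontal), without LIF. Blue points are libraries without Dox and red points libraries with Dox. The groups are apart for Hoxa10, Hoxa11, Hoxa13 and Evx1, and overlap or are near 0 for the genes from Hoxa2 to Hoxa9.

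Of the genes that carry the LIF signal, the 2 receptor subunits rose and the other 14 tested genes of the list did not pass (median 0.02). Lifr, the specific subunit, had 489, 800 and 568 normalised counts without Dox and 2355, 2188 and 2109 with Dox (log2 fold change 1.87, standard error 0.22, adjusted p = 0.000742). Il6st, which encodes gp130, had 888, 1021 and 1034 against 2235, 2351 and 1870 (log2 fold change 1.16, standard error 0.18, adjusted p = 0.00336). For both, each library with Dox held more than any without, and both calls were kept whichever library was left out. Stat3 had 471, 490 and 473 against 533, 549 and 565 (log2 fold change 0.23, adjusted p = 0.377), and Socs3, a target of STAT3 that limits the pathway, had 57.0, 81.4 and 49.2 against 35.1, 48.01 and 24.4 (log2 fold change -0.77, adjusted p = 0.221). In LIF without Dox, Socs3 had 2356 to 4719 and Stat3 2386 to 2658 normalised counts, above every library without LIF. Lifr had 2980 to 4638 there, also above every library without LIF. The 1448 to 1923 of Il6st in LIF without Dox overlapped with the libraries given Dox in its absence.

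Among FGF and ERK genes, 1 of 21 rose and 2 fell (median -0.23), where 3.6% of all genes tested rose and 1.54% fell. Fgf4, the FGF ligand of naive cells, had 2744, 3934 and 3293 normalised counts without Dox and 6510, 6807 and 5205 with Dox (log2 fold change 0.92, standard error 0.22, adjusted p = 0.0306), whereas Fgf5 fell, as given above. Dusp6, a phosphatase that ERK induces and that inactivates it, had 2907, 3229 and 3026 against 1758, 1679 and 1915 (log2 fold change -0.74, standard error 0.18, adjusted p = 0.0394). The receptor Fgfr1 (2991, 2554 and 3442 against 2164, 2205 and 2610, adjusted p = 0.405) and the inhibitor Spry2 (998, 1542 and 983 against 900, 1045 and 956, adjusted p = 0.562) did not pass. All 3 calls were lost without C1-1 of either group (adjusted p up to 0.136 for Fgf4, 0.137 for Fgf5 and 0.144 for Dusp6).

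Of 36 WNT genes 5 fell and 1 rose (median -0.26), where 1.54% of all genes tested fell and 3.6% rose. The lowered genes included 3 Frizzled receptors. Fzd7 had 6018, 5724 and 11572 normalised counts without Dox and 1699, 1876 and 4114 with Dox (log2 fold change -1.57, standard error 0.36, adjusted p = 0.0273), Fzd2 had 598, 483 and 703 against 176, 241 and 300 (log2 fold change -1.29, standard error 0.26, adjusted p = 0.0143) and Fzd8 had 128, 114 and 71.3 against 29.7, 31.7 and 19.9 (log2 fold change -1.91, standard error 0.33, adjusted p = 0.00742). Clone C2 had the highest Fzd7 and the lowest Fzd8 on both sides, and the fall was seen within each clone. The inhibitor Nkd2 fell (289, 243 and 318 against 143, 105 and 126, log2 fold change -1.15, adjusted p = 0.0165), and so did the effector Tcf7 (2482, 2390 and 2391 against 1632, 1703 and 1639, log2 fold change -0.52, adjusted p = 0.0463). Notum, a secreted enzyme that inactivates WNT ligands, was the raised gene and had 19.5, 27.1 and 22.1 against 181, 244 and 115 (log2 fold change 3.01, standard error 0.32, adjusted p = 0.000374). It had 273 to 404 in LIF without Dox, above every library without LIF. Axin2, the common reporter of WNT activity, had 397, 297 and 225 against 375, 360 and 212 (log2 fold change 0.07, adjusted p = 0.938), groups that overlapped. Without C1-1 of the cells without Dox the rise of Notum was the 1 call left in the list, and the adjusted p-values of the lowered genes reached 0.127 for Fzd7, 0.0891 for Fzd2, 0.0529 for Fzd8, 0.087 for Nkd2 and 0.204 for Tcf7.

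In the NODAL, activin and BMP list 2 of 29 genes rose and 3 fell (median -0.09), where 3.6% of all genes tested rose and 1.54% fell. The activin subunit Inhbb rose while the activin inhibitor Fst fell, as given above. In LIF without Dox, Inhbb had 2032 to 4576 normalised counts, above every library without LIF. Bmp4, a ligand that acts through SMAD1 and SMAD5, had 120, 129 and 98.3 normalised counts without Dox and 350, 324 and 240 with Dox (log2 fold change 1.43, standard error 0.21, adjusted p = 0.00302). Its 506 to 737 in LIF without Dox lay above every library without LIF. Id1 and Id2, inhibitors of helix-loop-helix factors that are induced by BMP, went the opposite way to Bmp4. Id1 had 527, 611 and 1073 against 151, 178 and 409 (log2 fold change -1.55, standard error 0.39, adjusted p = 0.0405), and Id2 had 1146, 1494 and 1995 against 502, 637 and 976 (log2 fold change -1.10, standard error 0.27, adjusted p = 0.0382). C2 held the most of both on each side. Lefty1, a target of NODAL, had 443, 398 and 97.1 against 625, 567 and 128 (log2 fold change 0.52, adjusted p = 0.776), with clone C2 far below C1 in each group. The calls of Id1 and Id2 were lost without C1-1 of either group and without C1-2, C1-1b or C2-1 (adjusted p up to 0.188 and 0.181).

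Of 15 NOTCH genes, Rbpj rose beside Notch4 (median -0.27). Rbpj, the DNA-binding partner of cleaved NOTCH receptors, had 7074, 9441 and 6862 normalised counts without Dox and 24432, 27068 and 20817 with Dox (log2 fold change 1.66, standard error 0.20, adjusted p = 0.000957), and Notch1 had 704, 549 and 470 against 656, 671 and 704 (log2 fold change 0.26, adjusted p = 0.626). Of 13 retinoic acid genes, Aldh1a2, which makes retinoic acid, rose from 11.4, 31.02 and 18.4 to 173, 185 and 96.7 (log2 fold change 2.96, standard error 0.39, adjusted p = 0.00133), and Crabp2, which carries it to its receptors, fell from 585, 755 and 631 to 291, 444 and 270 (log2 fold change -0.94, standard error 0.23, adjusted p = 0.0377), the latter call being lost without C1-1 of either group (adjusted p up to 0.202). The receptor Rarg had 3030, 3425 and 4413 against 2755, 3151 and 3349 (adjusted p = 0.679), and the median of the list was -0.20. Of 13 Hippo genes 3 fell and 1 rose (median -0.40). The YAP targets Ctgf (1707, 1576 and 1530 against 514, 550 and 659, log2 fold change -1.45, standard error 0.26, adjusted p = 0.00816) and Amotl2 (2969, 2137 and 2878 against 1121, 1071 and 1347, log2 fold change -1.15, standard error 0.18, adjusted p = 0.00406) fell by more than the spread of either group. The TEAD factors, which YAP uses to bind DNA, differed among themselves, Tead4 rising from 65.1, 63.3 and 60.2 to 193, 165 and 154 (log2 fold change 1.47, standard error 0.23, adjusted p = 0.00435) and Tead2 falling from 4990, 4392 and 4214 to 2779, 2879 and 2333 (log2 fold change -0.74, standard error 0.18, adjusted p = 0.0358). The call of Tead2 was lost without C1-1 of either group (adjusted p up to 0.189).

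Among genes of cell adhesion, the 8 called matrix and integrin genes were raised, whereas the called guidance genes and protocadherins were lowered except for Ntn1. Of 66 collagens, laminins and integrins 8 rose and none fell (median 0.10), and with the clone as a block 13 rose and 2 fell. Of all genes tested 3.6% rose and 1.54% fell, and with the block 5.54% and 3.26%. Beside Col14a1, Itga1 and Itga9, the integrin subunits Itgb3 (11.4, 19.4 and 22.1 against 64.3, 55.7 and 51.5, log2 fold change 1.75, standard error 0.32, adjusted p = 0.00932), Itgal and Itgb7 rose. Itgal, a leukocyte integrin, had 27.7, 21.98 and 34.4 normalised counts without Dox and 94.8, 79.7 and 47.9 with Dox (log2 fold change 1.43, standard error 0.33, adjusted p = 0.0277). Col5a3, a collagen subunit, had 44.8, 27.1 and 20.9 against 93.6, 85.7 and 69.6 (log2 fold change 1.43, standard error 0.37, adjusted p = 0.0456). In each of these the groups were apart, though at low levels. Fn1, which encodes fibronectin, had 9376, 8994 and 12996 against 13168, 10671 and 13682 (log2 fold change 0.29, adjusted p = 0.516), groups that overlapped. Without C1-1 of the cells without Dox 1 call of the list remained, and the adjusted p-values reached 0.0543 for Itgb3, 0.144 for Itgal, 0.191 for Col5a3, 0.0628 for Col14a1 and 0.0524 for Itga1.

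Of 53 semaphorin, ephrin and netrin guidance genes 5 fell and 1 rose (median -0.40), where 1.54% of all genes tested fell and 3.6% rose. Beside Sema6a the lowered genes were receptors. Unc5b, a netrin receptor, had 3394, 2588 and 4148 normalised counts without Dox and 698, 820 and 1602 with Dox (log2 fold change -1.67, standard error 0.31, adjusted p = 0.00932). Epha1 had 2253, 1523 and 2515 against 670, 646 and 899 (log2 fold change -1.48, standard error 0.32, adjusted p = 0.0205), Epha8 had 231, 225 and 304 against 76.5, 65.2 and 92.2 (log2 fold change -1.67, standard error 0.36, adjusted p = 0.0221), and Plxnb1, a semaphorin receptor, had 2660, 2323 and 2275 against 1264, 1505 and 1418 (log2 fold change -0.77, standard error 0.14, adjusted p = 0.0101). C2 had the highest Unc5b in both groups, and each library with Dox was below each without. The ligand Ntn1, netrin 1, rose from 34.2, 20.7 and 35.6 to 78.1, 134 and 66.9 (log2 fold change 1.63, standard error 0.33, adjusted p = 0.0156), opposite in direction to its receptor Unc5b. Ntn1 had 282 to 433 in LIF without Dox, above every library without LIF. Of 7 protocadherins tested, Pcdh1 (2320, 2731 and 3078 against 585, 770 and 1161, log2 fold change -1.66, standard error 0.27, adjusted p = 0.00469) and Pcdh18 (268, 279 and 182 against 66.4, 74.6 and 53.3, log2 fold change -1.88, standard error 0.38, adjusted p = 0.0159) fell and none rose. Without C1-1 with Dox the calls of Unc5b, Epha1, Epha8, Plxnb1 and Pcdh18 were lost, and without C1-1 without Dox those of all these but Unc5b, and that of Ntn1. The adjusted p-values reached 0.052 for Unc5b, 0.104 for Epha1, 0.115 for Epha8, 0.0777 for Plxnb1, 0.0891 for Pcdh18 and 0.0652 for Ntn1.

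The lists of epithelial junctions and of mesenchymal genes held 1 called gene each. Of 30 junction genes Grhl3, a factor of epithelial barriers, rose (77.4, 134 and 107 against 187, 332 and 225, log2 fold change 1.25, standard error 0.28, adjusted p = 0.0224), while Cdh1, E-cadherin, had 18876, 16503 and 20276 against 14050, 13206 and 14497 (log2 fold change -0.39, adjusted p = 0.189) and did not pass. Of 14 mesenchymal genes Zeb1, a repressor of E-cadherin, rose (22.8, 34.9 and 35.6 against 98.6, 123 and 151, log2 fold change 2.04, standard error 0.28, adjusted p = 0.00173), while Vim, vimentin, had 958, 1374 and 610 against 1788, 2156 and 1173 (log2 fold change 0.83, adjusted p = 0.139). The medians of the 2 lists were -0.02 and -0.20. The call of Grhl3 was lost in some fits with 1 library left out, among them that without C1-1 of the cells without Dox (adjusted p up to 0.112).

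The 3 germline lists held 6 called genes, all raised, as were 69.99% of all calls. Of all genes tested 3.6% were raised, and Prdm14 is also a member of the naive list. Of 11 genes of germ cell specification Prdm14, Tfap2c and Kit rose (median 0.87). Prdm14, a zinc finger factor of both naive cells and germ cell precursors, had 25.2, 71.1 and 33.2 normalised counts without Dox and 407, 544 and 257 with Dox (log2 fold change 3.28, standard error 0.37, adjusted p = 0.000555). Tfap2c, a factor of germ cell precursors and trophoblast, had 118, 141 and 224 against 465, 726 and 562 (log2 fold change 1.89, standard error 0.27, adjusted p = 0.00207), and Kit, the receptor of stem cell factor, had 532, 553 and 698 against 1227, 1163 and 1387 (log2 fold change 1.11, standard error 0.16, adjusted p = 0.00249). The groups were well apart for all 3, whose calls were kept whichever library was left out. Dazl, an RNA-binding protein of germ cells, had 213, 324 and 305 against 349, 497 and 659 (log2 fold change 0.87, standard error 0.38, adjusted p = 0.244) and did not pass. Of 29 meiosis and piRNA genes, Tex14, of the bridges between germ cells, rose from 101, 110 and 270 to 1380, 851 and 1290 (log2 fold change 2.91, standard error 0.35, adjusted p = 0.000897), and Smc1b, a meiotic cohesin, from 139, 138 and 301 to 582, 375 and 792 (log2 fold change 1.63, standard error 0.40, adjusted p = 0.0352). Sycp3, of the synaptonemal complex, had 578, 428 and 387 against 425, 395 and 386 (adjusted p = 0.857). The median of this list was 0.18. Of 7 tested genes of the X-linked Rhox cluster of homeobox genes Rhox1 rose, from 10.6, 7.76 and 3.69 to 77.7, 59.2 and 28.01 (log2 fold change 2.88, standard error 0.51, adjusted p = 0.00789), and the median was 1.12. The call of Smc1b was lost without C1-1 of either group (adjusted p up to 0.156). In LIF without Dox, Prdm14 had 755 to 945, Tfap2c 1095 to 1723 and Kit 2261 to 2660 normalised counts. Tex14 had 1487 to 1837 and Smc1b 936 to 1676 there. All of these lay above every library with Dox in the absence of LIF. Rhox1, with 26.8 to 62.0 in LIF without Dox, overlapped with them.

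Of the markers of other cell types, 1 of 16 was called for extraembryonic endoderm, 2 of 16 for trophoblast and none for fibroblasts and 2-cell-like cells. Of all genes tested 5.14% were called, a share below those of the endoderm and trophoblast lists. The counts therefore do not show that such cells were absent. Of 16 extraembryonic endoderm genes Hnf4a rose (14.7, 12.9 and 20.9 against 54.3, 28.3 and 45.2, log2 fold change 1.44, standard error 0.33, adjusted p = 0.0282), a call that was lost without C1-1 of either group (adjusted p up to 0.146), and the defining factor Gata6 had 22.8, 14.2 and 30.7 against 29.2, 23.1 and 15.4 normalised counts (adjusted p = 0.984). Hnf4a had 199 to 233 in LIF without Dox, above every library without LIF. Of 16 trophoblast genes Tfap2c and Tead4, given above, rose. The summed normalised counts of these lists ranged from 13906 to 16654 without Dox and from 12730 to 13593 with Dox for extraembryonic endoderm, and from 3426 to 3869 and from 3904 to 4808 for trophoblast. The 8 tested markers of fibroblasts, with sums of 1010 to 1256 without and 694 to 1179 with Dox, and the 9 tested markers of 2-cell-like cells, with sums of 440 to 2799 and 460 to 3533, held no called gene. Of the fibroblast markers Lum, which was too low to be tested, was listed at 0 in all 6 libraries. C1-2 without Dox and C1-1b with Dox had the highest sums of the 2-cell-like markers in their groups. The part of these markers in the other results was not tested.

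Each chromatin list held 1 or 2 called genes. Of 12 genes of Polycomb repressive complex 2 (PRC2), which methylates histone H3 at lysine 27, Phf19 rose (median 0.08). Phf19, an accessory subunit, had 168, 191 and 112 normalised counts without Dox and 625, 874 and 350 with Dox (log2 fold change 2.00, standard error 0.35, adjusted p = 0.00789), and its levels with Dox ranged widely. The catalytic subunit Ezh2 had 4502, 4664 and 4325 against 4933, 4466 and 4520 (log2 fold change 0.07, adjusted p = 0.877), and the other core subunits Eed and Suz12 had adjusted p-values of 0.509 and 0.548. Of 20 genes of Polycomb repressive complex 1 none rose and 1 fell, and Cbx7 had 4766, 3864 and 5159 against 5829, 5105 and 5557 (adjusted p = 0.406). Of 14 DNA methylation genes Tet2, an enzyme that oxidises methylcytosine, rose from 600, 1091 and 508 to 6514, 5787 and 4090 (log2 fold change 2.93, standard error 0.33, adjusted p = 0.000555), while Dnmt3b fell, as given above, and Dnmt3a had 9656, 9595 and 14734 against 7272, 7593 and 10619 (log2 fold change -0.39, adjusted p = 0.415). Of 26 imprinted genes Gnas fell (7621, 6620 and 5497 against 4314, 4013 and 3975, log2 fold change -0.65, standard error 0.17, adjusted p = 0.0446, median of the list -0.30), and with the clone as a block 8 fell and 1 rose. H19 and Igf2 share 1 imprinted domain. Igf2 had 330, 380 and 341 against 109, 165 and 116 (adjusted p = 0.11, with the block 0.0301), and H19, which was far higher in clone C2 than in C1, had 1117, 927 and 3797 against 315, 428 and 2156 (adjusted p = 0.674, with the block 0.0067). The call of Gnas was lost without any of several single libraries, C1-1 of either group among them (adjusted p up to 0.233).

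Metabolic lists gave few calls. Glycolysis and cholesterol synthesis had 1 raised gene each, a share near the 3.6% raised of all genes tested. Of 26 genes of glycolysis and pyruvate Pfkp, the platelet isoform of phosphofructokinase, rose from 3350, 3123 and 2363 to 10870, 8058 and 7365 normalised counts (log2 fold change 1.60, standard error 0.20, adjusted p = 0.00089), while Gapdh had 52443, 43886 and 56134 against 47278, 45360 and 45724 (log2 fold change -0.11, adjusted p = 0.909). Of 23 genes of cholesterol synthesis Ebp, a sterol isomerase, rose (202, 233 and 182 against 627, 672 and 309, log2 fold change 1.41, standard error 0.32, adjusted p = 0.0249). Neither the 75 nuclear genes of the respiratory chain (median 0.07), nor the 15 of threonine, serine and glycine metabolism (median 0.08), nor the 18 of the amino-acid stress response (median -0.14), nor the 20 p53 targets (median -0.15) held a called gene. Psat1, of serine synthesis, had 19648, 9063 and 18560 against 20774, 10477 and 19335, and Atf4, the main factor of the stress response, had 7317, 3438 and 6708 against 7101, 2998 and 6550, with C1-2 and C1-1b the lowest library of their group for both genes. The call of Ebp was lost without C1-1 of either group (adjusted p up to 0.116).

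Of 24 genes of the G1 phase and the MYC family 2 rose and 1 fell (median 0.20). Ccnd2, cyclin D2, had 508, 723 and 860 normalised counts without Dox and 1419, 1795 and 1902 with Dox (log2 fold change 1.32, standard error 0.30, adjusted p = 0.0262), above the 194 to 399 of the libraries in LIF. Rbl2, a relative of the retinoblastoma protein, rose (169, 203 and 173 against 324, 327 and 341, log2 fold change 0.90, standard error 0.19, adjusted p = 0.0213). Mycl1, a MYC family member, fell from 1528, 1166 and 1363 to 538, 452 and 572 (log2 fold change -1.35, standard error 0.23, adjusted p = 0.00724), and Myc itself had 1534, 1675 and 2945 against 551, 804 and 1295 (log2 fold change -1.19, standard error 0.36, adjusted p = 0.0852), with an adjusted p of 0.00321 once the clone was a block. Of 11 interferon genes Ddx58, an RNA sensor, rose (448, 420 and 699 against 1106, 889 and 970, log2 fold change 0.95, standard error 0.24, adjusted p = 0.0454) and Psmb8, an immunoproteasome subunit, fell (69.2, 51.7 and 70.1 against 14.2, 17.1 and 9.04, log2 fold change -2.20, standard error 0.41, adjusted p = 0.0183). Of 9 tested neighbours of Nanog on chromosome 6 Mfap5, a microfibril protein, rose (41.5, 56.9 and 92.2 against 135, 111 and 177, log2 fold change 1.19, standard error 0.31, adjusted p = 0.0493), and the adjacent genes Slc2a3 (log2 fold change 0.29, adjusted p = 0.55) and Dppa3 (log2 fold change 0.87, adjusted p = 0.652) did not pass. The calls of Ccnd2 (adjusted p up to 0.12), Rbl2 (0.105), Ddx58 (0.18), Psmb8 (0.101) and Mfap5 (0.2) were lost without some single libraries, C1-1 without Dox among them.

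Of the naive pluripotency genes 19 of 27 rose, Nanog included, and none fell. Esrrb, an orphan nuclear receptor, had 533, 852 and 644 normalised counts without Dox and 6677, 5889 and 5980 with Dox (log2 fold change 3.23, standard error 0.20, adjusted p = 3.03e-05), and Zfp42, also known as Rex1, had 935, 1594 and 1360 against 11752, 11377 and 9733 (log2 fold change 3.11, standard error 0.21, adjusted p = 3.40e-05). Klf5, a Krüppel-like factor, had 498, 605 and 565 against 4082, 3104 and 3490 (log2 fold change 2.71, standard error 0.20, adjusted p = 5.15e-05). For all 3 every library with Dox lay well above every library without. In LIF without Dox Esrrb had 14784 to 21159 normalised counts, more than any library without LIF, whereas the 2139 to 3604 of Klf5 overlapped with those reached with Dox in its absence.

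The response to Dox was compared with that of the same cells in LIF, where 88 genes were called (0.563%), 66 of them raised. This count rested on the fit and on single libraries. It was 588 with DESeq2, 293 with the clone as a block, 1 with the column-name block, in which the C1 libraries with LIF carry different numbers, 3 without C1-1 with LIF and Dox, 17 without C2-1 and 7 without C2-2 of the cells in LIF without Dox, 28 without C1-1 of those without LIF given Dox, 46 without C1-1b and 56 without C2-2 of the same group, 48 without C1-1 and 46 without C1-2 of the cells with neither LIF nor Dox, and 142 without C1-1 in LIF without Dox. Of the 7 calls left without C2-2 of the cells in LIF, 2 were raised. Both comparisons come from 1 model, in which 302 genes (1.93%) had a response that differed between them. Of the 30 genes with the largest changes, 11 differed. Gm7325 had a log2 fold change of 4.36 without and -0.06 with LIF (difference 4.42, standard error 0.61, adjusted p = 0.0067), and Mras had 3.73 and 0.06 (difference 3.67, standard error 0.45, adjusted p = 0.00543). In LIF they had 1076 to 1690 and 1933 to 3788 normalised counts without Dox and 1219 to 1440 and 3161 to 3229 with Dox. Ptgs1 responded in both settings but more so without LIF, with 3.80 and 1.69 (difference 2.12, standard error 0.35, adjusted p = 0.0132). Zfp36l3 had -3.37 and 1.34 (difference -4.72, standard error 0.64, adjusted p = 0.00603) and Sox3 had -2.58 and 0.24 (difference -2.82, standard error 0.49, adjusted p = 0.0162), with 5.03 to 8.03 and 13.4 to 21.8 normalised counts in LIF without Dox. For Hoxa13, with 6.18 and 4.72, Adipoq, with 5.78 and 4.32, and Pla2g4e, with 3.89 and 2.52, a difference was not shown (adjusted p = 0.448, 0.658 and 0.142). Hoxa13, Pla2g4e and Ptgs1 were the members of the 30 called in LIF too, but with the column-name block none of these 3 calls held (adjusted p = 0.0911, 0.0567 and 0.104). Without C1-1 with LIF and Dox those of Pla2g4e and Ptgs1 were lost (adjusted p = 0.0961 and 0.117), as they were without C2-2 in LIF without Dox (0.0543 and 0.056), and that of Ptgs1 was also lost without C2-1 in LIF without Dox (0.0618). The receptor genes Lifr and Il6st had -0.41 and -0.68 in LIF, and their responses differed by 2.28 and 1.84 (adjusted p = 0.00827 and 0.00827). Notum had the largest difference among the called genes of the lists, 3.01 without and -1.50 with LIF (difference 4.51, standard error 0.47, adjusted p = 0.00368). Leaving out 1 library left between 81 (C1-1 with Dox and without LIF) and 481 calls (C1-1 without Dox in LIF) of such a difference.

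**Figure D5:**
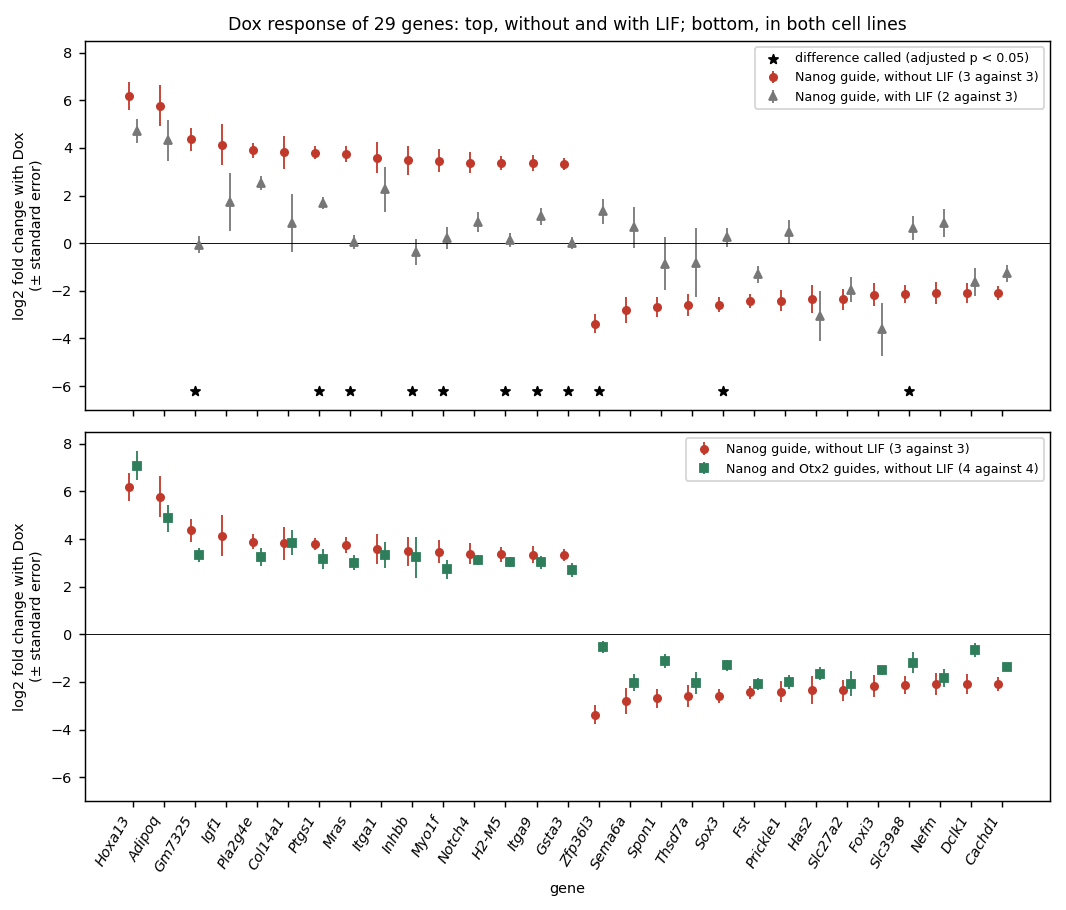
Log2 fold change with Dox, with its standard error, of the 15 most raised genes and 14 of the 15 most lowered. The upper panel sets cells with the Nanog guide without LIF (red circles) beside those with LIF (grey triangles), with stars where the difference was called, and the lower panel sets the former beside cells with guides for Nanog and Otx2 without LIF (green squares). Igf1 was not tested in the latter, and Zfp36l3, Slc39a8 and Dclk1 were not called there.

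The cells with guides for both Nanog and Otx2 gave a set of libraries that shares no sample with the 6. Per the study's methods, these cells were made from the Nanog guide cells of C1 and C2 by adding the Otx2 guide. They are therefore not independent of the 6 in clone, constructs or Nanog guide. Dox in these cells acts on the promoter of Otx2 as well. In them 2702 of 15609 genes (17.3%) responded to Dox without LIF, 1742 raised (11.2%) and 960 lowered (6.15%). Of the 562 genes raised under Nanog alone 554 were tested there and 475 rose (85.7% of those tested, 27.3% of the 1742), with a median log2 fold change of 1.23 against -0.007 for all genes. None fell. Of the 241 lowered genes 239 were tested and 145 fell (60.7%, and 15.1% of the 960), with a median of -0.65, and 2 rose, Kif21a and Psmb8, of which Kif21a was named after its value was seen. Of the 15 most raised genes 14 were tested and all of these rose. Igf1 was too low there to be tested, with mean normalised counts of 5.99 without and 14.6 with Dox. Under Nanog alone its means were 6.18 and 101. Hoxa13 had a log2 fold change of 7.09, Adipoq of 4.86 and Col14a1 of 3.85 (adjusted p = 3.12e-06, 5.05e-05 and 0.000174). Of the 15 most lowered 12 fell, with -2.09 for Fst and -1.38 for Cachd1 (adjusted p = 3.71e-05 and 5.49e-05), while Zfp36l3 had -0.55, Slc39a8 -1.19 and Dclk1 -0.67 (adjusted p = 0.146, 0.0837 and 0.149). Hoxa10 and Hoxa11, which had missed the threshold under Nanog alone, rose there by 5.36 and 5.90 on the log2 scale (adjusted p = 1.29e-05 and 0.00045). The formative gene Fgf5 had -0.71 (adjusted p = 0.0516) and did not pass, and Pou3f1 fell, with -0.87 (adjusted p = 0.0193). Lifr, Il6st and Notum rose again, with 1.71, 0.76 and 3.17 (adjusted p = 1.86e-05, 0.000287 and 2.97e-05).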

How the data were processed

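Poly(A) RNA was sequenced from single-end stranded libraries. Per the study's methods and the submitters' processing notes, the authors called bases with CASAVA 1.8, aligned reads with STAR to mm9, and deposited RSEM estimated counts per gene, rounded. They also deposited these counts divided by DESeq2 size factors over all 35 libraries, a signal called normalised counts here. Of 37620 genes, 15624 that reached 10 normalised counts in each library of any condition were tested.

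Groups came from the labels. The estimated counts were fitted with edgeR 4.0.16 (limma 3.58.1, R 4.3.3), with TMM scaling and a quasi-likelihood test, in 1 model of 11 Nanog guide libraries (LIF, Dox and the LIF by Dox interaction), and p-values were adjusted by Benjamini and Hochberg. Standard errors were derived from this test, as the absolute log2 fold change divided by the square root of its F statistic. The study's own choice, the Wald test of DESeq2 1.42.0 without independent filtering, was an alternative, as were DESeq2 size factors, other filters, the libraries without LIF alone, the clone as a block, and leaving out each library. Named were Nanog, the 15 largest changes in each direction outside the naive list (called, mean normalised count of 100 or more in the higher group, no overlap), and up to 6 called and 2 defining members of each list. Some genes are not reported here. Members and lists were chosen with earlier results of these data known.

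Libraries of 1 clone come from the same cell line. In the Nanog guide libraries without LIF, deviations from group means correlated at 0.299, 0.404 and 0.450 in the 3 pairs that share clone and number in the table's column names, at -0.06 and -0.055 in the other pairs of 1 clone, and at -0.345 to -0.169 between clones. With LIF, the 1 pair that shares a column-name number gave 0.185, and the other pairs of 1 clone gave 0.118 and -0.004. Deviations from a group mean cancel out within the group, so these correlations are not independent of one another. A block of the column-name numbers was added after seeing the data. No pair of replicates agreed within sampling noise. Fits were tested on simulated data, in which the share of unchanged genes among the calls was above the nominal level for edgeR, with or without the clone block, and higher for DESeq2, and edgeR missed most of the changed genes in the simulated Nanog guide libraries. Python 3.11.15, pandas 2.3.3, numpy 2.4.6 and matplotlib 3.10.9 served for tables and plots. The authors' peak and signal tracks of other assays were not used.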

Additional observations from a re-analysis of the deposited data

Results flagged for a closer look

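Of the 92 called genes described in the report, 35 had a response to Dox that differed between cells without and with LIF by the test of the difference itself (adjusted p-value under 0.05, edgeR). The values given are the log2 fold change without LIF minus that with LIF. The cause was not tested.

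Among the genes most raised, the difference was 4.42 for Gm7325, 3.84 for Inhbb, 3.67 for Mras, 3.31 for Gsta3, 3.25 for Myo1f, 3.23 for H2-M5, 2.23 for Itga9 and 2.12 for Ptgs1. Among the naive and germline genes it was 3.88 for Zfp42, 3.24 for Tet2, 3.11 for Esrrb, 3.05 for Prdm14, 2.99 for Tex14, 2.40 for Klf5 and 2.13 for Tfap2c. Among genes of signalling it was 4.51 for Notum, 2.28 for Lifr, 1.84 for Il6st, 1.62 for Rbpj and 1.55 for Bmp4. Among the other raised genes it was 2.21 for Ccnd2, 2.17 for Ntn1, 2.14 for Zeb1, 1.87 for Stmn2, 1.78 for Pfkp and 1.67 for Ddx58. Among the lowered genes it was -4.72 for Zfp36l3, -2.82 for Sox3, -2.76 for Slc39a8, -2.51 for Epha1, -2.46 for Nes, -2.03 for Nkd2, -1.84 for Pcdh1, -1.73 for Pou3f1 and -0.95 for Plxnb1.

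In the cells with guides for Nanog and Otx2, 4 of the 62 groups of 4 libraries examined held a library far from the other 3 by Dixon's criterion, and chance gives such a library in about 1 in 20 groups. That number is close to what chance gives. They were C1ON3-1 without Dox for Hoxa13 (1.0 normalised count, where the other 3 were at 0, so that any value would have met the criterion) and for Thsd7a (159.5), C2ON3-2 without Dox for Ptgs1 (5.57) and C2ON3-2 with Dox for Foxi3 (288).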

How the results depend on the processing

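The log2 fold changes without LIF of the 92 called genes described kept their direction in all alternatives run, and the counts of calls moved. For the response without LIF, 803 calls became 1509 with DESeq2 (58.18% raised against 69.99%), 1375 with the clone as a replicate block (62.98%), 1951 with the libraries without LIF on their own (54.38%), and 277 to 1617 when 1 library was left out. DESeq2's size factors (807), edgeR's own filter (779), no filter (850) and a block of the clones and numbers of the table's column names (1044, added after seeing the data) stayed within 1.5 times. For the response in LIF, 88 calls became 588 with DESeq2, 151 with no filter, 293 with the clone block, 1 with the column-name block, and 3 to 142 with 1 library left out. For the difference between both, 302 calls became 877 with DESeq2, 709 with the clone block and 81 to 481 with 1 library left out. In the cells with guides for Nanog and Otx2, 2702 calls became 4690 with the clone block and 1756 to 3007 with 1 library left out. The cause of these shifts was not tested. Of the 92 called genes described, 84 kept their call in all 7 alternatives that leave out no library and 45 in all 11 fits that leave out 1. The calls lost most often rested on C1-1 without Dox (44 genes) and C1-1 with Dox (41). The clone block ended no call of these 92, and the column-name block left 86, and 25 of the 35 called differences with LIF. The 8 that lost a call in another alternative with all libraries were Has2, Fgf5, Mixl1, Tcf7, Tead2, Gnas, Ddx58 and Mfap5.

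With 3 libraries a group from 2 clones, and with a single induced group in LIF of 2 libraries, small differences were not resolved, and a gene that missed the threshold is not shown to be unaffected. No cells given Dox without a guide were analysed here, so a response to Dox or to SunTag itself cannot be told apart from that to Nanog.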

Other observations

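Of 16 genes encoded by the mitochondrial genome, examined after their share of counts was seen to differ, mt-Nd3 (log2 fold change 0.83, adjusted p = 0.0113) and mt-Atp6 (0.66, adjusted p = 0.0346) rose with Dox in the absence of LIF, and the median of the 16 was 0.52.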
